A study of Mus musculus with 9 samples.

Results

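The genes described here are 10 genes of myeloid priming and of the granules of neutrophils and monocytes: Mpo, Elane, Prtn3, Ctsg, S100a8, S100a9, Lyz2, Cebpa, Csf1r and Spi1. They were chosen by name and matched through their Ensembl identifiers, and they are 10 of the 52550 genes in the count table. The libraries are bulk RNA-seq of mouse bone marrow cells sorted as Lin- Sca1+ c-Kit+ CD48- CD150+, the surface pattern of long-term haematopoietic stem cells, with 1000 cells per library and 3 libraries per group. The young WT group came from wild-type mice aged 2 months, and the aged WT group from wild-type mice aged 22 to 24 months. The aged KO group came from mice of the same 22 to 24 months whose genotype is given as B6N.129S6-Sphk2tm1Rlp/J (Sphk2 cKO), an allele of sphingosine kinase Sphk2. No Cre driver, strain of the wild-type mice, sex or number of mice is given in the labels. The labels call the 3 libraries of a group technical replicates, so the p-values below measure only the spread between these libraries.

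Myeloid priming is the low transcription of myeloid genes in stem and progenitor cells before these cells commit to a lineage. The transcription factors PU.1, encoded by Spi1, and C/EBPα, encoded by Cebpa, bind and activate many of the other genes, among them the receptor gene Csf1r and the genes of the primary (azurophil) granule. Those granule proteins are made chiefly at the promyelocyte stage, in which myeloperoxidase and the serine proteases neutrophil elastase, proteinase 3 and cathepsin G are packed together, whereas S100A8 and S100A9 form the cytosolic calprotectin complex of later neutrophils and monocytes, and Lyz2 encodes the lysozyme of myeloid cells.

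The protease genes Prtn3 (chromosome 10, 79874476 to 79883174, plus strand, mm10) and Elane (chromosome 10, 79886247 to 79888215, plus strand) lie next to each other. Ctsg is on chromosome 14 (56099881 to 56102574, minus strand) and Mpo on chromosome 11 (87793581 to 87804413, plus strand). Their promoters are shown because these 4 genes share a compartment and, in RefSeq promoters of GRCm38.p6 (the mm10 assembly), each holds the letters GAGGAA, a core that PU.1 can bind. The 250 bases before the RefSeq start were searched on both strands, and 23.25% of all 32851 promoters of this length hold GAGGAA. The stretch outside annotated exons is printed for each gene on its own strand, with each match in capitals.
Mpo promoter, chr11:87793534-87793580, plus strand: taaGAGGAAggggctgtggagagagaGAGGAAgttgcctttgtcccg
Elane promoter, chr10:79886062-79886246, plus strand: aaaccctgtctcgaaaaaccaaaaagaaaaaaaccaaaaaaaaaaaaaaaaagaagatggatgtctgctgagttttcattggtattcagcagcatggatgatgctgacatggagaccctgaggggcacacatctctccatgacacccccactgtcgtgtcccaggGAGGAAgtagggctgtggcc
Prtn3 promoter, chr10:79879417-79879613, plus strand: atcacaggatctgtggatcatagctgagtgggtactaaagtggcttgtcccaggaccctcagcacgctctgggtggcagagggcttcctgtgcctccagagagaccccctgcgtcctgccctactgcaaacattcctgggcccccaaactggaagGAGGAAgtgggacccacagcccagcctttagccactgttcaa
Ctsg promoter, chr14:56102575-56102824, minus strand: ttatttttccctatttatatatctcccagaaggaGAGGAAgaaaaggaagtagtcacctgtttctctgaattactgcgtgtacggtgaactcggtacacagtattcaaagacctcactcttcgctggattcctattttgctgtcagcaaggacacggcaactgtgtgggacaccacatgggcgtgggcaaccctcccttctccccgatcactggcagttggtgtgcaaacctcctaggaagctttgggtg
The match began 95 bases before the RefSeq start in Prtn3, 85 in Elane, 216 in Ctsg, and 247 and 224 in Mpo. Of the 8 genes with a promoter in the table, 5 held GAGGAA, the other being S100a8 with 2 matches. The C/EBP-type letters TTNNGNAA, whose matches did not overlap those of GAGGAA, were in S100a8, S100a9 and Lyz2 and in 36.85% of all promoters. These matches describe the letters in this window and were not tested as binding sites.

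Lyz2 has a near-identical neighbour, Lyz1, the lysozyme of intestinal Paneth cells, so the start of both coding sequences is shown (GENCODE M21), with the letters that differ in capitals.
Lyz2 coding start: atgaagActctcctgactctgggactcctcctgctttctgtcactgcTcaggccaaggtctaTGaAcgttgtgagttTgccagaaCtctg
Lyz1 coding start: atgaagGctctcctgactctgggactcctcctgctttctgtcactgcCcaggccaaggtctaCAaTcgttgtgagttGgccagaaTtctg
The coding sequences are 444 bases each, without the stop codon, and are 95.05% identical, with 22 differences. None of the 1167 windows of 150 bases, the read length, in the Lyz2 transcript is identical in Lyz1. Counts of Lyz1 were 0, 6 and 8 in young WT, 32, 4 and 13 in aged WT and 3, 12 and 17 in aged KO, and it was above background in none.

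Counts in genes ranged from 28088637 to 74021822 per library in young WT, from 3145167 to 5115003 in aged WT and from 11284847 to 17544945 in aged KO. Counts outside genes made up 6.51 to 12.5% of a library in young WT, 80.8 to 87.7% in aged WT and 45.0 to 61.9% in aged KO. Reads over olfactory receptor exons, genes that marrow cells do not use, gave a background of 1.09 to 1.44 counts per kb in young WT, 5.44 to 10.4 in aged WT and 5.55 to 7.28 in aged KO. A gene is called above background in a library here when its count is 20 or more and is 5 or more times what its exon length predicts from this background. By that rule 7377 to 8122 of 21819 protein-coding genes were above background in a young WT library, 638 to 1126 in aged WT and 2878 to 4171 in aged KO. The sorting genes Kit, Ly6a and Slamf1 were above background in all 3 young WT libraries. In aged WT, Kit and Ly6a were above it in 0 of 3 and Slamf1 in 1 of 3, aged WT 3, where Slamf1 was at 306 CPM against 0.757 to 12.5 CPM in young WT. In aged KO, Kit and Slamf1 were above it in 3 of 3 and Ly6a in 1 of 3. Cd48, whose protein the sort gates out, was above background in 1 young WT library (244 counts, 8.69 CPM) and in 0 old libraries. The targeted gene Sphk2 had 1684, 88 and 576 counts in young WT, 20, 1 and 35 in aged WT and 12, 23 and 8 in aged KO. It was above background in young WT only, so its level in aged WT gives no check of the aged KO label.

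Proteinase 3 was the one myeloid gene of the 10 that stood above background in all 9 libraries, and only 207 of the 21819 protein-coding genes did so. In young WT, 6 of the 10 genes were above background in at least 2 libraries (Mpo, Prtn3, S100a8, S100a9, Lyz2 and Spi1), where 35.4% of protein-coding genes were. In aged WT these were 2 (Prtn3 and S100a8), against 1.96% of protein-coding genes, and in aged KO they were 4 (Prtn3, S100a9, Lyz2 and Spi1), against 12.5%. Counted by gene and library, 20 of 30 values were above background in young WT, 8 of 30 in aged WT and 14 of 30 in aged KO. In these bulk libraries, fewer cells with a transcript and less of it per cell cannot be told apart.

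**Figure D1:**
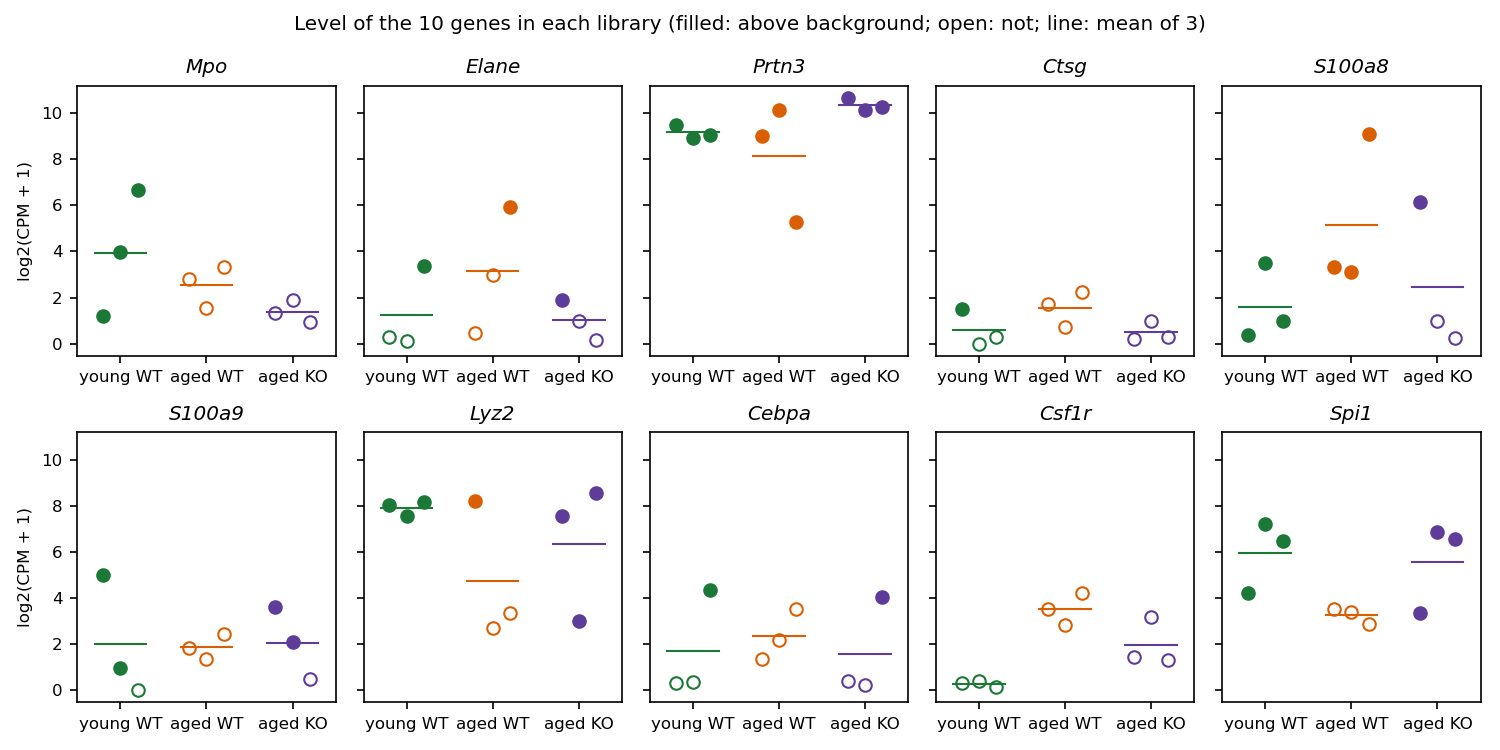
Level of each of the 10 genes in every library, as log2(CPM + 1) on the vertical axis with the group on the horizontal axis; filled points are above background, open points are not, and lines are means of 3 libraries. Prtn3 is filled in all 9 libraries and Csf1r in none, while most other genes differ widely between libraries of the same group.

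**Figure D2:**
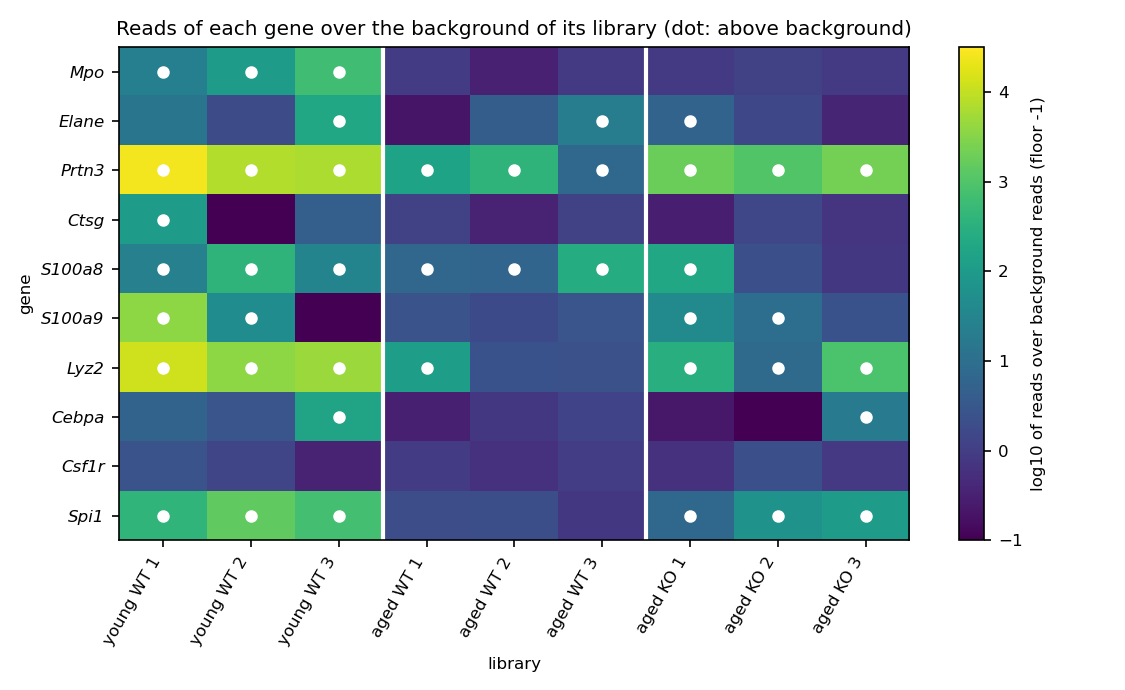
Counts of each gene (rows) divided by the counts that the background of the library (columns) predicts for its length, on a log10 color scale with a floor of -1; white dots mark values above background. The aged WT columns hold 8 dots among 30 cells, against 20 in young WT and 14 in aged KO.

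Per kb of exon, the mean level in young WT ran from Prtn3 (337 CPM per kb) and Lyz2 (186) through Spi1 (31.4), S100a9 (20.4), Mpo (11.5), S100a8 (5.49), Elane (3.23) and Cebpa (2.55) to Ctsg (0.666) and Csf1r (0.0381). CPM are scaled to the counts in genes of each library. The 3 young WT libraries of Prtn3 (285 to 415 CPM per kb) were all above those of Lyz2 (142 to 215), and those of Lyz2 were all above Spi1 (6.44 to 54.9). From Spi1 down to Ctsg, neighbours in this order overlapped. Among all 21819 protein-coding genes, Prtn3 ranked 141st, 185th and 172nd per kb in young WT, 191st, 91st and 540th in aged WT, and 87th, 105th and 101st in aged KO.

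Spi1 encodes PU.1, which drives myeloid and B-lymphoid fates and is needed in stem cells too. Spi1 (chromosome 2, 91082390 to 91115756, plus strand) had 1285, 4154 and 2757 counts in young WT, 54, 30 and 22 in aged WT, and 123, 1297 and 1619 in aged KO. As CPM these were 17.4, 148 and 88.8 in young WT, 10.6, 9.54 and 6.38 in aged WT, and 9.14, 115 and 92.3 in aged KO. All 3 aged WT libraries lay below the young WT range and none was above background, while all 3 aged KO libraries were above background. In CPM, aged KO 1 (9.14) lay within the aged WT range and the other two within the young WT range, but with CPM taken over all counts aged KO 1 was at 3.75, above the 0.747 to 1.78 of aged WT. Spi1 fell by 6.95 ± 1.52 on the log2 scale in aged WT against young WT (SE, 3 libraries each, edgeR adjusted p = 0.00837), and this call was kept in all 9 fits that leave out 1 library.

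Cebpa encodes the factor that directs progenitors into the granulocyte and monocyte lineages. Cebpa (chromosome 7, 35119293 to 35121928, plus strand) had 18, 8 and 609 counts in young WT, 8, 11 and 36 in aged WT, and 4, 2 and 271 in aged KO, or 0.243, 0.285 and 19.6 CPM, 1.56, 3.50 and 10.4 CPM, and 0.297, 0.177 and 15.4 CPM. A single library of young WT and a single one of aged KO were above background, and no aged WT library was. The groups overlapped in each pair, and no comparison passed the test (edgeR adjusted p = 0.0850 for aged WT against young WT, 0.782 for aged KO against aged WT and 0.415 for aged KO against young WT).

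Csf1r encodes the receptor for the monocyte growth factor M-CSF and lies on chromosome 18. It had 18, 9 and 3 counts in young WT, 54, 19 and 61 in aged WT, and 23, 92 and 26 in aged KO. No library was above background: Csf1r had 0.362 to 2.60 times the background count in young WT, 0.605 to 1.01 times in aged WT and 0.597 to 2.19 times in aged KO. Its CPM was 0.0967 to 0.320 in young WT, 6.04 to 17.7 in aged WT and 1.48 to 8.15 in aged KO, so both old groups lay above the young WT range on this scale, alongside the higher background of those libraries.

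Mpo encodes myeloperoxidase, the most abundant protein of the azurophil granule. Mpo had 98, 408 and 3162 counts in young WT (1.32, 14.5 and 102 CPM), 31, 6 and 31 in aged WT (6.06, 1.91 and 8.99 CPM), and 20, 31 and 16 in aged KO (1.49, 2.75 and 0.912 CPM). The young WT libraries were all above background but differed 77.0-fold among themselves, and all 6 old libraries were at background, at 0.322 to 1.24 times its count. Mpo fell by 6.80 ± 1.70 on the log2 scale in aged WT against young WT (edgeR adjusted p = 0.0127) and fell by 6.63 ± 1.68 in aged KO against young WT (edgeR adjusted p = 0.0340). The CPM ranges overlapped in both comparisons, because the lowest young WT library was at 1.32 CPM.

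Prtn3 encodes proteinase 3, a serine protease of the same granule. Prtn3 had 53258, 13845 and 16738 counts in young WT, 2610, 3583 and 131 in aged WT, and 21627, 12555 and 21893 in aged KO. As CPM these were 719, 493 and 539 in young WT, 510, 1139 and 38.0 in aged WT, and 1607, 1113 and 1248 in aged KO. The young WT libraries differed 1.46-fold among themselves and the aged KO libraries 1.44-fold, the aged WT libraries 30.0-fold, and the aged KO range lay wholly above the young WT range. With CPM taken over all counts, those outside genes included, Prtn3 was at 408 to 633 in young WT, 4.45 to 207 in aged WT and 401 to 659 in aged KO, and on that scale aged KO and young WT overlapped while aged WT was below both. The fitted change in aged WT against young WT was a fall by 3.93 ± 1.21 on the log2 scale (edgeR adjusted p = 0.0255), but with library totals as the only scaling it was -0.05 ± 0.93 (edgeR adjusted p = 0.962).

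Elane, which encodes neutrophil elastase and is the next gene downstream of Prtn3, was low in most libraries in which Prtn3 was high. Elane had 16, 2 and 287 counts in young WT (0.216, 0.0712 and 9.25 CPM), 2, 22 and 208 in aged WT (0.391, 6.99 and 60.3 CPM), and 37, 11 and 2 in aged KO (2.75, 0.975 and 0.114 CPM). One library per group was above background, and the aged WT library with the most Elane was the one with the least Prtn3. No comparison of Elane passed the test (edgeR adjusted p = 0.432, 0.853 and 0.137 for aged WT against young WT, aged KO against aged WT and aged KO against young WT). The next gene, Cfd, was above background in no library. Plppr3, upstream and on the other strand, overlaps the first exon of the long Prtn3 model. Plppr3 had 592 to 6533 counts in young WT, 20 to 61 in aged WT and 53 to 1218 in aged KO. Whether reads were counted by strand is not given in the sources used here.

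Ctsg encodes cathepsin G, the third serine protease of the granule. Ctsg had 136, 0 and 7 counts in young WT, 12, 2 and 13 in aged WT, and 2, 11 and 4 in aged KO. Only the young WT library with 136 counts (1.84 CPM) was above background, and the count of 0 allows up to 0.107 CPM in its library. No comparison passed the test (edgeR adjusted p = 0.0819 for aged WT against young WT, 1.000 for aged KO against aged WT and 0.0822 for aged KO against young WT). Without young WT 2, the library with 0 counts, Ctsg was called lower in aged WT (-3.55, edgeR adjusted p = 0.0264) and in aged KO (-3.99, edgeR adjusted p = 0.0419) against young WT. Without young WT 1, the library with 136 counts, the changes were 0.22 (edgeR adjusted p = 0.908) and -0.20 (edgeR adjusted p = 0.930), so the fall rests on that 1 library.

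**Figure D3:**
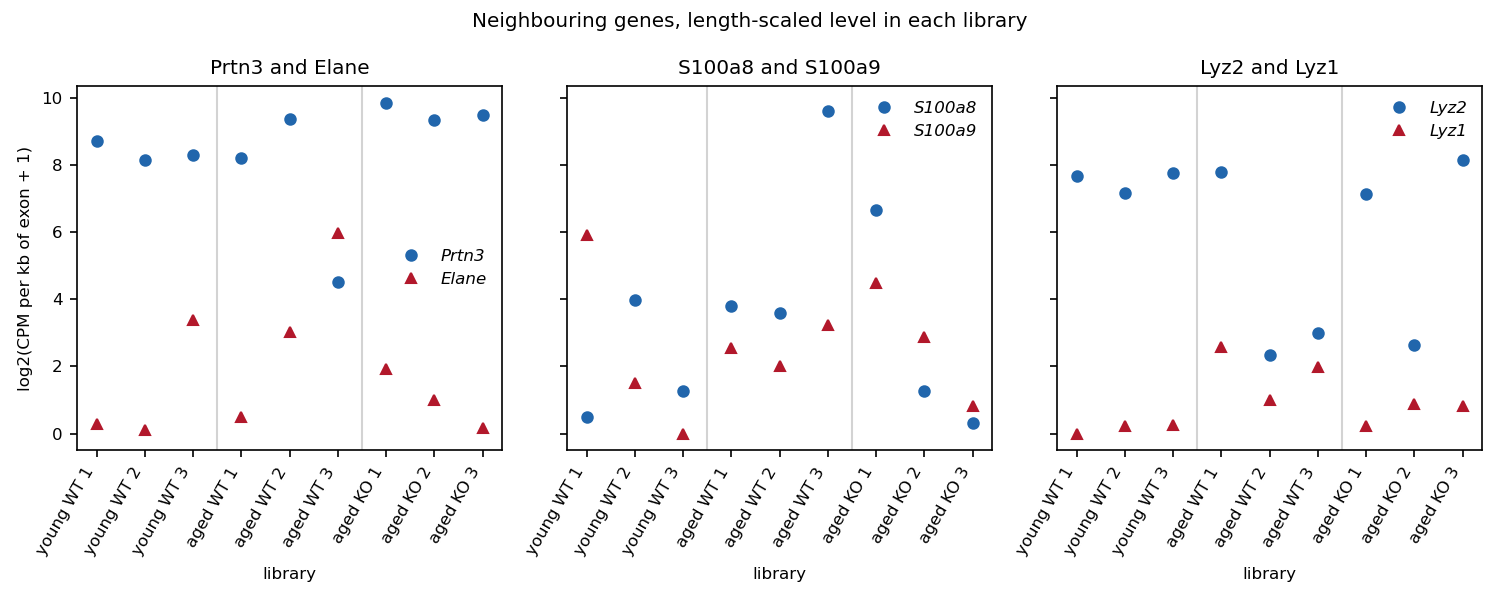
Length-scaled level, log2(CPM per kb of exon + 1), of 3 pairs of neighbouring genes in each library, with grey lines between the groups. Prtn3 lies far above Elane in 8 libraries and below it in aged WT 3, S100a8 and S100a9 are highest in different libraries, and Lyz2 lies above Lyz1 in all 9.

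S100a8 and S100a9 encode the subunits of calprotectin, which together make up a large part of the neutrophil cytosol, and lie near each other on chromosome 3 (90668978 to 90670035, plus strand, and 90692632 to 90695721, minus strand). S100a8 had 21, 286 and 30 counts in young WT (0.284, 10.2 and 0.967 CPM), 46, 24 and 1865 in aged WT (8.99, 7.63 and 541 CPM), and 933, 11 and 3 in aged KO (69.3, 0.975 and 0.171 CPM). S100a9 had 2295, 27 and 0 counts in young WT (31.0, 0.961 and 0 CPM), 13, 5 and 15 in aged WT (2.54, 1.59 and 4.35 CPM), and 149, 37 and 7 in aged KO (11.1, 3.28 and 0.399 CPM). The count of 0 allows up to 0.0967 CPM. The libraries high in the subunits were not the same ones: aged WT 3 had the most S100a8 of all 9 libraries with S100a9 not above background, and young WT 1 had the most S100a9 with 21 counts of S100a8. Both were above background in young WT 1, young WT 2 and aged KO 1. S100a9 fell by 6.46 ± 2.25 on the log2 scale in aged WT against young WT (edgeR adjusted p = 0.0375), and without young WT 1 the change was -1.19 (edgeR adjusted p = 0.456). The S100a9 call was also lost without any 1 of the aged WT libraries, with edgeR adjusted p from 0.0990 to 0.103. S100a8 passed in no comparison (edgeR adjusted p = 0.485, 1.000 and 0.747 in the order given for Elane). Their neighbour S100a7a was above background in no library.

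Lyz2 (chromosome 10, 117277331 to 117282321, minus strand) encodes lysozyme, an enzyme that cuts bacterial cell walls and is made by granulocytes, monocytes and macrophages. Lyz2 had 19633, 5245 and 8795 counts in young WT (265, 187 and 283 CPM), 1498, 17 and 32 in aged WT (293, 5.41 and 9.28 CPM), and 2492, 78 and 6509 in aged KO (185, 6.91 and 371 CPM). The young WT libraries agreed within 1.52-fold, whereas 1 aged WT library and 2 aged KO libraries had at least 185 CPM and the other two aged WT libraries and the other aged KO library had less than 10 CPM. Lyz2 fell by 5.20 ± 1.78 on the log2 scale in aged WT against young WT (edgeR adjusted p = 0.0356), although its CPM ranges overlapped. It passed in neither comparison of aged KO (edgeR adjusted p = 0.546 against aged WT and 0.264 against young WT).

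The summed level of the 10 genes was 854 to 1044 CPM in young WT, 700 to 1182 in aged WT and 1252 to 1888 in aged KO. Prtn3 made up 51.7 to 69.4% of the counts of the 10 genes in young WT libraries and 72.1 to 88.9% in aged KO libraries. In aged WT its share was 60.3% (95% Wilson interval 58.8 to 61.8%), 96.3% (95.7 to 96.9%) and 5.43% (4.59 to 6.40%), and in the last of these libraries S100a8 was the leading gene with 77.3%. These intervals cover counting error only, since amplified reads are not independent molecules. The sum is therefore mostly a measure of 1 gene in 8 of the 9 libraries.

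The comparison of aged WT with young WT sets old against young wild-type mice. Age cannot be told apart here from the background and the share of counts outside genes, whose ranges did not overlap between these groups. In this comparison, 5 of the 10 genes fell (Mpo, Prtn3, S100a9, Lyz2 and Spi1) and 0 rose, by edgeR's quasi-likelihood test with adjusted p under 0.05, where 18.4% of the 32582 genes tested fell and 18.6% rose. At an unadjusted p under 0.05, 7 fell and 0 rose, with the share of all genes at that threshold not computed. DESeq2 gave 7 of the 10 an adjusted p and called 4 lower and 0 higher. Of all 49385 genes it fitted, it called 6430 lower and 9518 higher. The median log2 fold change was -4.21 over the 10 genes and 1.37 over all genes tested. After background subtraction the medians were -1.62 over the 6 of the 10 tested and -2.01 over the 8620 genes tested. That fit kept only genes above background in at least 2 libraries of some group. In young WT 7720 protein-coding genes met this, and in aged WT 427. A gene could enter through young WT alone, as Mpo did. These medians therefore cannot be set against those of the full fit. Of the 5 that fell, Prtn3 was still above background in all 3 aged WT libraries and Lyz2 in 1, while Mpo, S100a9 and Spi1 were above it in none. Some marker lists of cell types fell in the same comparison: 5 of 7 erythroid markers tested fell and 1 rose, and 3 of 5 megakaryocyte markers fell and 0 rose. Of 8 markers of stem cells, the sorted type, 4 fell and 0 rose. Other lists did not fall: 0 of 7 B cell markers were called, and 2 of 6 T and NK cell markers rose and 1 fell. Of 7 monocyte and macrophage markers 1 rose and 0 fell, and of 8 mature neutrophil markers 1 rose and 1 fell. The summed CPM of all 8 erythroid markers was 31.8 to 322 in young WT, with 3 to 6 above background, and 12.1 to 28.1 in aged WT, with 0 above background and up to 3 at 0 counts. That of the 5 megakaryocyte markers was 368 to 794 in young WT and 37.7 to 393 in aged WT. The part of these markers' cells in the values of the 10 genes was not tested. By CPM ranges alone, Spi1 lay lower without overlap, which 3.93% of genes did, and Csf1r lay higher, which 50.5% of genes did.

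The size of these changes rests on the scaling. The TMM factors moved the median gene by -3.90 on the log2 scale against scaling by library totals, under which the median of all genes was 5.30. With totals, 1 gene of the 10 fell and 2 rose, where 1134 of the 32582 genes tested fell and 22280 rose. With totals, Spi1 fell by 3.26 ± 1.28 (edgeR adjusted p = 0.0302), while S100a8 (5.61 ± 2.26, edgeR adjusted p = 0.0349) and Csf1r (5.66 ± 1.21, edgeR adjusted p = 0.000974) were called higher, and Elane (2.83) and Ctsg (1.68) changed sign without passing. Relative to the median of all genes tested, Prtn3 was at -5.30 with TMM and -5.36 with totals, Spi1 at -8.32 and -8.56, and Mpo at -8.17 and -8.09, whereas S100a8 was at 0.18 and 0.31 and Csf1r at 0.18 and 0.36. A scaling factor shifts every gene alike, so subtracting the median makes each pair nearly agree by construction. After background subtraction, Prtn3 itself was at 0.42, Spi1 at -3.97 and Mpo at -12.4. The median of the 8620 genes then tested was -2.01, and 0 of the 10 were called. The number that fell also changed with the libraries in the fit: it was 2 without young WT 1, 3 without aged WT 1, 2 without aged WT 2 and 1 without aged WT 3. The call of Mpo was lost without aged WT 2 or 3, that of Prtn3 without young WT 1, aged WT 1 or aged WT 3, that of S100a9 without young WT 1 or any 1 of the aged WT libraries, and that of Lyz2 without young WT 1, young WT 3, aged WT 2 or aged WT 3.

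The comparison of aged KO with aged WT sets the Sphk2 allele against wild type at old age. The allele cannot be told apart here from the share of counts outside genes and the number of genes above background, whose ranges did not overlap between these groups. None of the 10 genes passed edgeR's test in either direction, where 0.457% of genes rose and 0.00% fell. At an unadjusted p under 0.05 there were 2, both higher, and DESeq2 called 1 of the 5 genes to which it gave an adjusted p, Spi1, higher by 4.49 ± 0.98 on the log2 scale (DESeq2 adjusted p = 7.51e-05). The edgeR estimates of those 2 were 4.92 ± 1.38 for Spi1 (edgeR adjusted p = 0.139) and 2.94 ± 1.16 for Prtn3 (edgeR adjusted p = 0.298). Of all 49385 genes it fitted, DESeq2 called 2081 higher and 146 lower, and the share of all genes at the unadjusted threshold was not computed. The median was 1.40 over the 10 genes and -0.04 over all genes tested. No gene of the 10 had CPM ranges without overlap, where 1.76% of all genes lay wholly higher and 35.4% wholly lower. Mpo (0.18 with TMM and -1.72 with totals) and Csf1r (0.20 and -1.60) changed sign with the scaling, which moved the median gene by 1.88 here.

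In aged KO against young WT, Mpo fell and was the only gene of the 10 to pass in either direction, where 5.84% of genes fell and 6.92% rose. At an unadjusted p under 0.05, 2 of the 10 were lower and 1 was higher, with the share of all genes at that threshold not computed. DESeq2 gave 7 of the 10 an adjusted p and called 2 lower and 0 higher. Of all 49385 genes it fitted, it called 4453 lower and 3874 higher. The median was -2.14 over the 10 genes and 1.20 over all genes tested. After background subtraction the medians were 0.37 over the 6 of the 10 tested and -0.34 over the 8620 genes tested. These come from the same restricted set of genes, so they cannot be set against those of the full fit. The Mpo call was lost without aged WT 1, aged WT 3 or any 1 of the aged KO libraries, with edgeR adjusted p between 0.0504 and 0.0909. Without any 1 of the aged KO libraries, 0 genes of all those tested were called in this comparison, against 4158 with all 9 libraries. By CPM ranges, Prtn3 and Csf1r lay wholly higher in aged KO, which 43.5% of all genes did, and no gene of the 10 lay wholly lower, which 2.72% did. The fitted change of Prtn3 was -0.98 ± 1.09 with TMM (edgeR adjusted p = 0.473) and 1.18 ± 0.94 with totals (edgeR adjusted p = 0.286), with the TMM factors moving the median gene by -2.01. Aged KO and young WT differ at once in age, genotype, background and counts outside genes, which cannot be told apart. Each group enters 2 of the 3 comparisons, so the 3 sets of values are not independent.

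**Figure D4:**
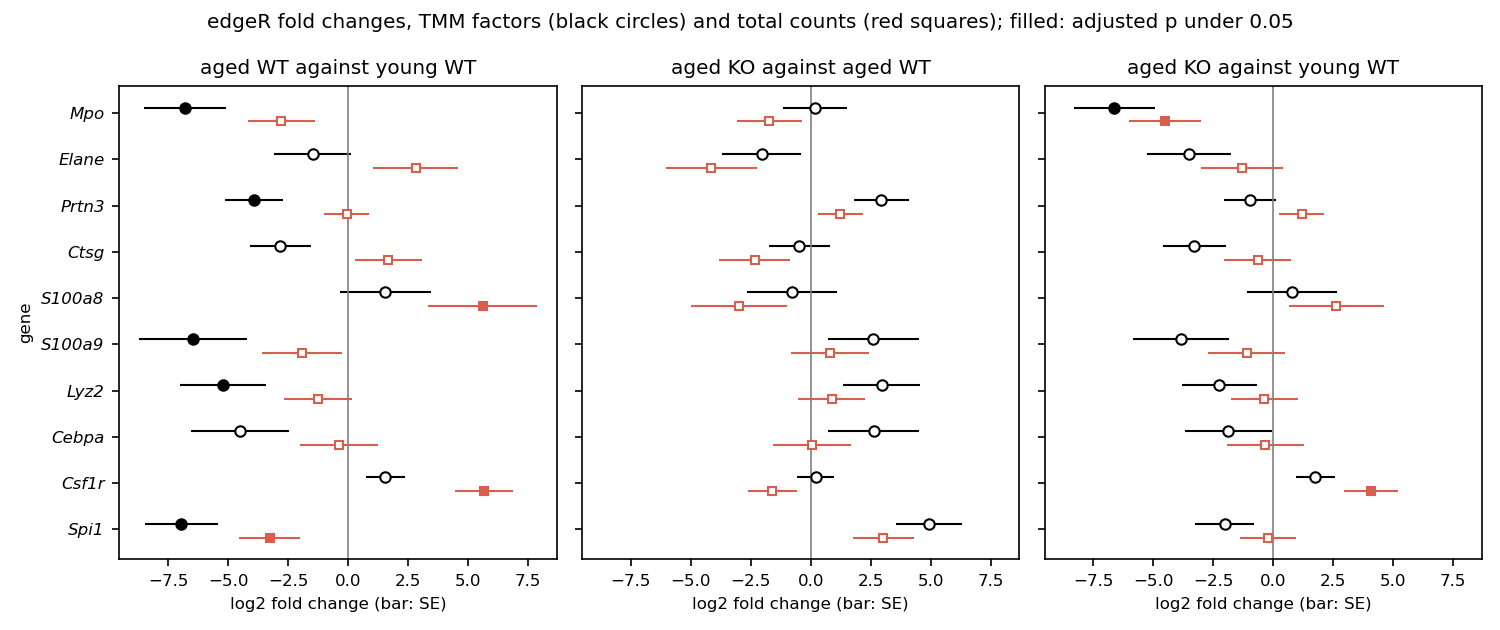
Log2 fold change with its SE (horizontal axis) of each of the 10 genes in the 3 comparisons, with TMM factors (black circles) and library totals (red squares); filled symbols have an adjusted p under 0.05. In aged WT against young WT 5 black circles are filled on the lower side, and with totals 1 red square is filled there and 2 on the higher side; in aged KO against aged WT no symbol is filled.

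Other genes of the same programme came from 4 lists. Among 12 other myeloid transcription factors, 6 fell and 1 rose in aged WT against young WT (median -3.52 against 1.37 over all genes). Klf4, a factor of monocyte differentiation, was at 813 to 1063 CPM in young WT, 13.4 to 27.0 in aged WT and 2770 to 3561 in aged KO, and its groups did not overlap. Klf4 fell by 9.53 ± 1.11 on the log2 scale in aged WT against young WT (edgeR adjusted p = 0.00387) and rose by 9.23 ± 1.10 in aged KO against aged WT (edgeR adjusted p = 0.00583). The fall was called in all 9 fits that leave out 1 library, but the rise in only 3: it was not called without any 1 of the young WT or aged WT libraries, where edgeR adjusted p reached 0.0983, nor with the 6 libraries alone, where 0 genes in all were called. The change itself was 8.98 to 9.50 over the 9 fits. Runx1, a factor of blood stem cell formation, fell in aged WT against young WT (-6.70 ± 1.17, edgeR adjusted p = 0.00531), as did Nfe2, a factor of megakaryocytes (-7.10 ± 1.56, edgeR adjusted p = 0.00862). The gene that rose was Cebpe, a factor of late granulocyte genes, with 0 counts in the 3 young WT libraries and 7, 7 and 23 in aged WT, above background in none and called in 3 of the 9 fits that leave out 1 library. In aged KO against aged WT, Klf4 was the 1 of the 12 that passed. In aged KO against young WT 0 passed edgeR's test, with 6 at an unadjusted p under 0.05 and 5 called by DESeq2 (4 lower and 1 higher).

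Among 20 other granule and neutrophil genes, 9 fell and 1 rose in aged WT against young WT (median -2.86). Cyba, a subunit of the oxidase that makes superoxide, was at 78.5 to 110 CPM in young WT, 4.13 to 7.25 in aged WT and 22.2 to 39.0 in aged KO, with no overlap between groups, and fell in aged WT (-8.02 ± 1.38, edgeR adjusted p = 0.00531) and in aged KO (-3.64 ± 1.13, edgeR adjusted p = 0.0474) against young WT. Serpinb1a, an inhibitor of elastase, cathepsin G and proteinase 3, was at 28.4 to 223 CPM in young WT, 5.08 to 6.99 in aged WT and 1.04 to 3.01 in aged KO. Serpinb1a was above background in no old library, including those in which Prtn3 was above it, and it fell against young WT in aged WT (-7.95 ± 1.42, edgeR adjusted p = 0.00546) and in aged KO (-7.80 ± 1.41, edgeR adjusted p = 0.0298). Cd63, a membrane protein of azurophil granules, fell in aged WT (-7.76 ± 1.48, edgeR adjusted p = 0.00584), and Ms4a3, a gene of granulocyte and monocyte progenitors, fell in aged KO (-5.98 ± 1.80, edgeR adjusted p = 0.0445). The gene that rose was Cxcr2, a chemokine receptor of neutrophils, with 0 to 3 counts in young WT and 15 to 39 in aged WT, above background in none. The aged WT calls of Cyba, Serpinb1a and Cd63 were kept in all 9 fits that leave out 1 library and that of Cxcr2 in 4. Of the aged KO calls, that of Serpinb1a was lost without any 1 of the aged KO libraries, that of Ms4a3 in 7 of the 9 fits and that of Cyba in all 9.
Of these 20, 3 fell and 0 rose in aged KO against young WT, with 4 higher at an unadjusted p under 0.05 and 1 called higher by DESeq2. Against aged WT 0 of the 20 passed in aged KO, with 7 higher at an unadjusted p under 0.05 and 5 by DESeq2. Srgn, the proteoglycan that binds granule proteases, was at 1417 to 2131 CPM in young WT, at 17.2, 801 and 947 in aged WT and at 1452 to 2738 in aged KO. Calr, a chaperone of myeloperoxidase, was at 632 to 759 CPM in young WT, 339, 172 and 13.9 in aged WT and 775 to 1169 in aged KO. For both genes the aged WT libraries were the lowest, as the aged KO and young WT values were all above them.

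Of 15 other monocyte and macrophage genes, 2 fell and 1 rose in aged WT against young WT (median 1.30). Plac8, a gene of myeloid progenitors, was at 106 to 196 CPM in young WT, 5.08 to 7.63 in aged WT and 1.68 to 25.1 in aged KO, and fell against young WT in both (-8.71 ± 1.75, edgeR adjusted p = 0.00658, and -5.77 ± 1.53, edgeR adjusted p = 0.0357). Ctss, a lysosomal protease of antigen-presenting cells, also fell in both (-6.87 ± 1.96, edgeR adjusted p = 0.0195, and -6.40 ± 1.92, edgeR adjusted p = 0.0440), although its young WT libraries ran from 0.0356 to 51.2 CPM. The aged WT call of Plac8 was kept in all 9 fits that leave out 1 library, and that of Ctss was lost without any 1 of the aged WT libraries. The aged KO calls of both were lost in 7 of the 9, without young WT 1 or any 1 of the aged libraries of either genotype. The gene that rose was Fcgr1, an antibody receptor, above background in no library and called in 1 of the 9 fits. Plac8 and Ctss were also the only genes of the 15 called in aged KO against young WT, where 2 fell and 0 rose, with 2 higher at an unadjusted p under 0.05 and 0 by DESeq2. Against aged WT 0 of the 15 passed in aged KO, with 1 higher at an unadjusted p under 0.05 and 0 by DESeq2.

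Among 10 growth factor receptors of myeloid progenitors, 4 fell and 1 rose in aged WT against young WT (median -3.76). Kit, the stem cell factor receptor, was at 449 to 584 CPM in young WT, 28.7 to 74.2 in aged WT and 97.2 to 412 in aged KO, and fell against young WT in aged WT (-7.69 ± 1.21, edgeR adjusted p = 0.00460) and in aged KO (-3.53 ± 0.99, edgeR adjusted p = 0.0395). Csf2ra and Il3ra, chains of the GM-CSF and interleukin 3 receptors, fell in aged WT (-7.52 ± 1.62, edgeR adjusted p = 0.00790, and -6.67 ± 1.69, edgeR adjusted p = 0.0134). In aged KO, Kit and Cd34 fell against young WT, 2 of the 10 (Cd34 -5.82 ± 1.75, edgeR adjusted p = 0.0446), and 0 rose, with 1 higher at an unadjusted p under 0.05 and 0 by DESeq2. The aged KO call of Kit was lost in all 9 fits that leave out 1 library (edgeR adjusted p from 0.0525 to 0.115) and that of Cd34 in 8, while the aged WT calls of Kit and Csf2ra were kept in all 9 and that of Il3ra was lost without aged WT 1 or 3. Against aged WT 0 of the 10 receptors passed in aged KO, with 3 higher at an unadjusted p under 0.05 and 2 by DESeq2. The gene that rose in aged WT, Csf2rb2, was called in 0 of those 9 fits and was again above background in no library, as was each gene of these 4 lists that rose against young WT.

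The summed level of mature neutrophil markers was highest in 1 aged KO library, mostly through Ngp and Ltf. The summed CPM of 8 mature neutrophil markers, all 8 of them also among the 20 granule and neutrophil genes above, was 13.9 to 60.8 in young WT, with 1 to 2 of 8 above background, 42.3 to 87.0 in aged WT, with 1 of 8, and 11.4 to 419 in aged KO, with 0 to 3 of 8. The library at 419 was aged KO 1, the only aged KO library in which S100a8 or Elane was above background, and its Ngp (251 CPM), Ltf (134 CPM) and Camp (26.1 CPM), genes of later granules, were above background as well. Of the 8 markers, only Ngp and Ltf peaked in that library. Camp peaked in a young WT library (28.4 CPM). Ly6g, Cxcr2, Retnlg, Mmp8 and Mmp9 peaked in aged WT libraries, at 5.22 to 26.4 CPM, and of these only Retnlg was above background in any library. Aged WT 3, the library with 541 CPM of S100a8, had 87.0 CPM over these markers. In young WT, Ngp was above background in all 3 libraries (4432, 362 and 968 counts) and Camp in 1 (881 counts), while the other 6 markers were above it in none, with 11 counts at most. The part of mature neutrophils in the S100a8 and S100a9 values was not tested. The summed CPM of 7 monocyte and macrophage markers, all 7 of them also among the 15 monocyte and macrophage genes above, was 0.392 to 49.8 in young WT, 42.0 to 85.0 in aged WT and 10.7 to 18.5 in aged KO, with at most 1 of 7 above background in any library. Lyz2 was at 185 and 371 CPM in aged KO libraries in which that sum was at most 18.5 CPM.

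The genes whose pattern over the 9 libraries was most like that of a member are given for Mpo, Cebpa and Spi1, as the root mean square difference of centred log2(CPM + 1) among 7022 protein-coding genes with at least 10 CPM on average in young WT. For Mpo they were Prkag2 (0.37), Mob3c (0.39) and Manbal (0.45). For Cebpa they were Ell (0.24), Hivep1 (0.64) and Apex2 (0.65), and Ell was likewise high in 1 young WT library, at 49.6 CPM against 1.42 and 1.32 in the other two. For Spi1 they were Atn1 (0.47), Wac (0.56) and Wdr5 (0.58). The 9 libraries in these values also share their depth and background.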

How the data were processed

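Total RNA of sorted mouse bone marrow cells was measured by low-input RNA-seq (poly(A) tailing of cDNA, 13 PCR cycles, paired 150-base reads), per the labels' protocols. The authors deposited 1 table of raw counts per Ensembl gene. The tools in the submitters' processing notes are HTSeq 0.10.0, STAR 2.6.1d, edgeR 3.24.3 and Trim Galore 0.6.2, with the build mm10. For the annotation and the strand setting, the sources used here give nothing. The 5 summary lines of the table stayed out of library sizes and tests. Of 52550 identifiers, 52403 matched a symbol, and exon lengths came from GENCODE M21.

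Groups followed the labels (3 libraries each). All 9 libraries entered 1 edgeR 4.0.16 quasi-likelihood fit (R 4.3.3) with TMM factors and filterByExpr, with Benjamini-Hochberg adjustment over all genes tested and a threshold of 0.05. DESeq2 1.42.0, other scalings and filters, a replicate block, background subtraction and leaving out each library were alternatives. The fit was also run on simulated counts drawn from the young WT means, without the higher background of the aged libraries. That run therefore does not show how the fit behaves on these libraries. Background came from 1092 olfactory receptor genes, leaving out the densest 1%. The count of 3 sets the limit for a gene with 0 counts. No pairing by replicate number was seen. Same-numbered libraries of different groups correlated between -0.033 and 0.025 in their deviations from the group means, and differently numbered ones between -0.021 and 0.040. With 3 libraries per group and the background of the aged libraries, a pairing could still go unseen. The members and lists were chosen with earlier results of these data known. Named from the lists were up to 3 called genes per list and comparison by adjusted p, or the 2 with the highest young WT mean where none was called, any gene called in the direction opposite to the others being added after its values were seen, as were the single marker genes.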

Additional observations from a re-analysis of the deposited data

How the results depend on the processing

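With all libraries kept, 169 fold changes of single genes under an alternative had the direction and the side of the threshold given above, 15 turned, 12 lost a call and 6 gained one; 49 counts stayed within 1.5 times and 14 did not. The cause of these changes was not tested. In aged WT against young WT, the number called higher went from 0 to 2 with library totals and 1 with at least 10 counts in every library of a group, and the number called lower went from 5 to 1 with totals and 0 after background subtraction, which tested only 8620 genes and 6 of the 10. In aged KO against aged WT, DESeq2 called 1 higher. In aged KO against young WT, totals called 1 higher (Csf1r), and the number lower went from 1 to 2 with DESeq2 and to 0 with the 6 libraries compared alone, with background subtraction and with the replicate block. The block, for which no pairing by number was seen, left 4 lower in aged WT against young WT. It reduced all genes called from 12058 to 7076, from 149 to 2 and from 4158 to 0 in the 3 comparisons. With totals the genes called were 23414, 2 and 18438, with DESeq2 15948, 2227 and 8327, and with the 6 libraries alone 11438, 0 and 3887. For aged KO against aged WT they were 271 with no filter, 241 with the stricter filter and 2 with upper-quartile factors, and the stricter filter gave 6670 in aged KO against young WT. After background subtraction they were 12, 14 and 4. The split of genes called higher and lower in aged WT against young WT went from 6062 and 5996 to 22280 and 1134 with totals and 9275 and 5771 with upper-quartile factors; in aged KO against young WT it went from 2256 and 1902 to 17158 and 1280 and to 4113 and 1997.

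Signs that turned with totals were those of Elane (2.83) and Ctsg (1.68) in aged WT against young WT, Mpo (-1.72) and Csf1r (-1.60) in aged KO against aged WT, and Prtn3 (1.18) in aged KO against young WT. Mpo in aged KO against aged WT was -0.20 with DESeq2 and -0.20 with the stricter filter, and Csf1r was -0.14 with that filter and -0.16 with DESeq2, which gave it no adjusted p and is not among the 15. With the block, Ctsg (0.058) and Cebpa (-0.64) turned in aged KO against aged WT and S100a8 (-0.46) in aged KO against young WT. After background subtraction, Prtn3 turned in aged WT against young WT (0.42), and Prtn3 (1.77), Lyz2 (0.21) and Spi1 (0.53) turned in aged KO against young WT.

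Leaving out each library gave 1 to 6 called lower in aged WT against young WT and 0 to 2 in aged KO against young WT. The fold changes that turned ran from -3.51 to 2.44 for Elane, -3.55 to 0.22 for Ctsg and -2.32 to 3.60 for S100a8 in aged WT against young WT. In aged KO against aged WT they ran from -0.14 to 0.42 for Mpo, -6.15 to 3.06 for S100a8, -2.49 to 3.23 for Cebpa and -0.61 to 0.57 for Csf1r. Against young WT, those of aged KO ran from -4.85 to 0.44 for Elane, -4.70 to 2.86 for S100a8, -5.48 to 1.45 for S100a9 and -7.05 to 2.55 for Cebpa.

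With CPM over all counts, 5 genes had ranges apart in aged WT against young WT (2 with CPM over counts in genes) and 2 in aged KO against aged WT (0). In the first comparison Mpo, Prtn3, Lyz2 and Spi1 lay lower and Csf1r higher, and in the second Prtn3 and Spi1 lay higher. The share of all genes with ranges apart was not computed on that scale, so these counts cannot be judged against it. Of the 10, 5 were above background in at least 2 aged WT libraries at 2 times the background count and 1 at 10 times, against 2 at 5 times. The share of protein-coding genes was computed at 5 times only, where it was 1.96%. The depth and background of the aged WT libraries limit what can be seen there: the limit of a count of 0 was 0.587 to 0.954 CPM in aged WT and 0.0405 to 0.107 CPM in young WT.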
